A study of Mus musculus with 8 samples.

Results

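Liver sinusoidal endothelial cells were followed through 10 marker genes, Stab1, Stab2, Lyve1, Clec4g, Fcgr2b, Pecam1, Kdr, Oit3, Bmp2 and Ptprb, which were chosen by name as markers of these cells. Earlier results of these data were known when these markers and the other gene lists used below were chosen. They are 10 of the 27453 genes listed in the files, and all 10 were among the 7668 genes with enough reads to be tested. Polyadenylated RNA of 8 mouse livers (strain C57BL/6JN) had been read by nanopore direct RNA sequencing, in which each read is 1 native RNA molecule entered from its poly(A) tail. The libraries titled O and those titled Y were 4 each, and in each set replicates 1 and 2 came from males and replicates 3 and 4 from females. The labels name no drug and no engineered allele. The study set liver of young mice, about 2 months of age, against that of old mice, about 18 months. The age field contradicts the titles, with 12 weeks for every O-titled and 80 weeks for every Y-titled library, so the groups are named by title and differences are O-titled over Y-titled. Each library came from a separate animal, since the files give 8 distinct animal numbers.

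Sinusoidal endothelial cells line the blood channels between the plates of hepatocytes. They are pierced by open pores without a continuous basement membrane, and they clear waste macromolecules from the blood by endocytosis through scavenger receptors. They also signal to their neighbours: BMP ligands made by the endothelium tell hepatocytes to make hepcidin, the hormone that limits iron uptake, and VEGF signalling through KDR keeps the endothelium alive and porous. In whole liver, fewer cells of a type and less RNA per cell cannot be told apart, and that limit holds for every value that follows.

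Mapped reads ranged from 545171 to 2593200 per library, and the 10 markers together took 2836 reads. Levels are given in CPM (counts-per-million of mapped reads, with TMM scaling between libraries), as mean ± SD with n = 4 libraries a group. At these depths 3 reads, used as the floor of detection, stand for 1.16 to 5.50 CPM. Intervals and floors cover counting error only. The sex labels were checked on Xist, with at least 32 reads in each female and at most 3 in any male. Of the 7668 genes, 311 (4.06%) were called between the titles by edgeR's quasi-likelihood test with Benjamini-Hochberg adjustment at 0.05, 167 higher and 144 lower in O, and 1236 were at an unadjusted p under 0.05. Scaled by total mapped reads alone, the share of calls that were higher in O moved from 53.7% to 69.7%.

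The markers were present in every library, each with at least 3 reads. A direct RNA read counts 1 molecule whatever its length, so CPM is set out first. Clec4g, a C-type lectin that binds glycans and is carried by liver and lymph node sinusoidal endothelium, led at 68.5 CPM. Fcgr2b, the inhibitory Fc receptor that also takes up small immune complexes in the liver, followed at 55.5 CPM. Ptprb was at 25.2 CPM, Kdr at 24.6, Oit3, a liver-enriched protein of little-known function, at 24.1, Stab2 at 22.2, Stab1 at 19.7, Bmp2 at 15.6, Pecam1 at 11.6 and Lyve1 at 6.02. Of the 9 pairs of neighbours in this order 0 lay apart over the 8 libraries, since the ranges of all 9 overlapped.

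CPM was also divided by the length of each gene's most read transcript. This scale is given for description only. Since a direct RNA read counts a molecule whatever its length, comparing numbers of molecules does not call for that division. Clec4g was at 55.2, Fcgr2b at 15.7, Oit3 at 8.89, Bmp2 at 4.4 and Kdr at 4.15 CPM per kilobase. Pecam1 was at 3.36, Stab2 at 2.69, Stab1 at 2.46, Ptprb at 2.12 and Lyve1 at 2.08 CPM per kilobase. On that scale 2 neighbouring pairs lay apart, Clec4g above Fcgr2b and Oit3 above Bmp2, and 7 overlapped. Both separations come with the division by length, since the same pairs overlap in CPM. Division by length also moves Ptprb, with the longest transcript, from rank 3 to rank 9, while Clec4g and Fcgr2b led on either scale.

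Summed over the 10 genes, the markers stood at 249.8, 311.8, 252.9 and 343.2 CPM in O-titled replicates 1 to 4 and at 220.0, 211.6, 309.7 and 285.5 CPM in the Y-titled ones. The groups overlapped, at 289 ± 45.8 and 257 ± 48.4 CPM. In each library these reads were between 0.0200% and 0.0366% of all mapped reads. Between the titles 1 of the 10 markers was called, Fcgr2b, beside 4.06% of all tested genes. At an unadjusted p under 0.05 in edgeR were 2, Fcgr2b and Lyve1, beside 16.1% of all tested genes. Of the 10 markers 5 had a positive and 5 a negative log2 fold change, and their median was 0.03, beside 0.01 over all tested genes. The set as a whole therefore had no shared direction between the titles, and single genes are described next by role.

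**Figure D1:**
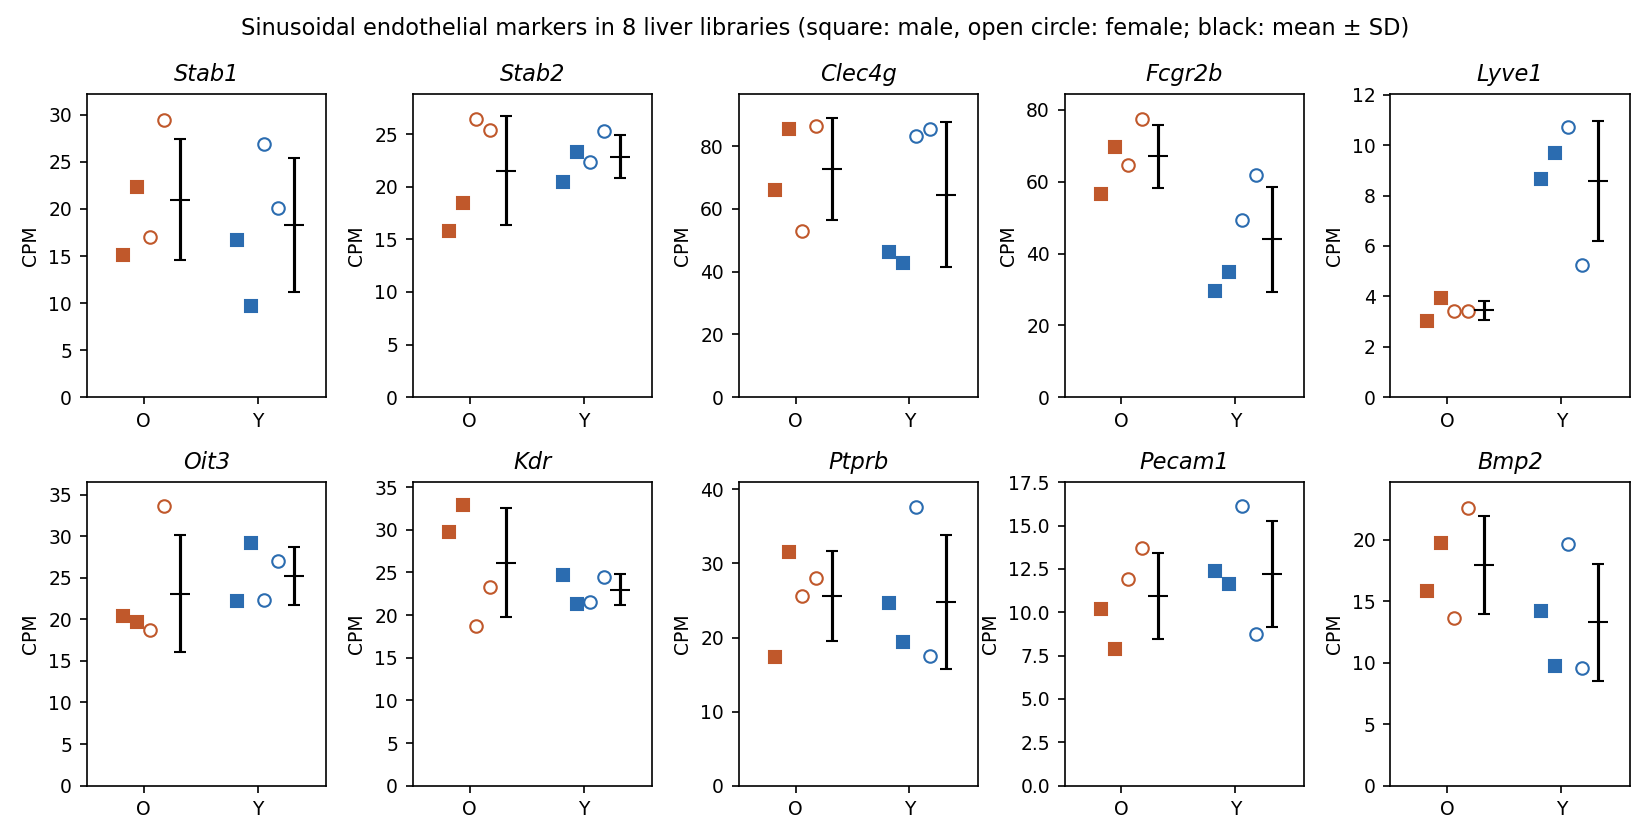
Level of each of the 10 markers in each library in CPM (linear axes from 0, a separate scale for each gene), O-titled in brown and Y-titled in blue, squares for males and open circles for females, with the group mean ± SD in black. For Fcgr2b the O-titled libraries lie at 56.5 to 77.4 CPM and the Y-titled at 29.7 to 62.0, and for Lyve1 all 4 O-titled points lie under all 4 Y-titled points.

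Fcgr2b was higher in O-titled livers. The gene (ENSMUSG00000026656) lies on the minus strand at chr1:170958617-170976547 of mm10. It was read at 56.5, 69.7, 64.7 and 77.4 CPM in O-titled replicates 1 to 4 (150, 53, 76 and 113 reads) and at 29.7, 34.9, 49.2 and 62.0 CPM in the Y-titled ones (48, 18, 55 and 71 reads). Both Y-titled males were low, and the highest Y-titled library, female replicate 4, was above O-titled male replicate 1, so the groups overlapped. Means were 67.1 ± 8.77 and 44.0 ± 14.6 CPM. The log2 fold change was 0.62 with a standard error of 0.17, or 1.54-fold, at an adjusted p of 0.0394 in edgeR.

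That call is close to its threshold. The log2 fold change stayed positive, between 0.48 and 0.77, in all 17 other fits that were run, and the adjusted p rose above 0.05 in 10 of them. It was lost in edgeR without O replicate 1 (adjusted p 0.0868), O replicate 2 (0.0823), O replicate 4 (0.0921), Y replicate 1 (0.211), Y replicate 2 (0.0712) or Y replicate 3 (0.121), and held without O replicate 3 (0.0242) or Y replicate 4 (0.0263). With DESeq2 the adjusted p was 0.134, with all libraries thinned to the shallowest 0.131, with the title number as a replicate block in place of sex 0.0666, and with no term for sex 0.183.

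The remaining scavenger and uptake receptors had no called difference. Clec4g (ENSMUSG00000074491, minus strand, chr8:3707064-3720651) stood at 65.9, 85.5, 52.8 and 86.3 CPM in the O-titled and 46.4, 42.7, 83.2 and 85.6 CPM in the Y-titled libraries. The low values were the Y-titled males and 1 O-titled female, and the log2 fold change was 0.18 (standard error 0.21, adjusted p 0.770 in edgeR).

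Stab1 and Stab2 encode the stabilins, very large receptors with many fasciclin and EGF-like domains. Stabilin 2 is the main endocytic receptor for hyaluronan in liver, and both take up modified proteins. Stab1 (ENSMUSG00000042286, minus strand, chr14:31139013-31168641) was at 15.1, 22.4, 17.0 and 29.5 CPM in O and 16.7, 9.70, 26.9 and 20.1 CPM in Y. Stab2 (ENSMUSG00000035459, minus strand, chr10:86841198-87008025) was at 15.8, 18.4, 26.4 and 25.3 CPM in O and 20.4, 23.3, 22.4 and 25.3 CPM in Y. The groups overlapped for both, with log2 fold changes of 0.11 for Stab1 and -0.10 for Stab2, each under its standard error of 0.25 and 0.20.

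Lyve1, the hyaluronan receptor shared by sinusoidal and lymphatic endothelium (ENSMUSG00000030787, minus strand, chr7:110850607-110863239), was the only marker whose groups did not overlap. Its levels were 3.01, 3.95, 3.41 and 3.42 CPM in O and 8.65, 9.70, 10.7 and 5.24 CPM in Y, from 8, 3, 4 and 5 reads against 14, 5, 12 and 6. Among all tested genes 645 (8.41%) had titles that did not overlap. Means were 3.45 ± 0.382 and 8.58 ± 2.39 CPM, and the log2 fold change of -1.32 (standard error 0.44) did not pass, at an unadjusted p of 0.00750 and an adjusted p of 0.108 in edgeR. With 57 reads in all, O replicate 2 and Y replicate 2 rest on 3 and 5 reads. Lyve1 also entered the test only through the Y-titled group, since the filter asked for 8.85 CPM of mapped reads in at least 2 libraries and was met in 2 Y-titled and 0 O-titled ones, so a difference was built into its being tested. As a share of all marker reads Lyve1 was 0.998% to 1.35% in O and 1.83% to 4.59% in Y, and Fcgr2b was 22.4% to 25.6% in O and 13.5% to 21.7% in Y. These shares restate the same reads over a common total, in which a higher Fcgr2b lowers the share of every other marker. They are therefore not a separate comparison.

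Oit3 (ENSMUSG00000009654, minus strand, chr10:59422958-59441778) was at 20.3, 19.7, 18.7 and 33.6 CPM in O and 22.3, 29.1, 22.4 and 27.1 CPM in Y. Replicate 4 stood above the other O-titled libraries, and the log2 fold change was -0.07 (standard error 0.22).

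The vascular receptors did not differ detectably either. Kdr, the main signalling receptor for VEGF-A (ENSMUSG00000062960, minus strand, chr5:75932827-75978458), was at 29.8, 32.9, 18.7 and 23.3 CPM in O and 24.7, 21.3, 21.5 and 24.4 CPM in Y. Ptprb, the endothelial receptor phosphatase that damps signalling of the angiopoietin receptor TEK (ENSMUSG00000020154, plus strand, chr10:116275523-116389535), was at 17.3, 31.6, 25.5 and 28.1 CPM in O and 24.7, 19.4, 37.6 and 17.5 CPM in Y. Pecam1, an adhesion molecule at endothelial junctions that is also carried by leukocytes and platelets (ENSMUSG00000020717, minus strand, chr11:106654217-106750628), was at 10.2, 7.89, 11.9 and 13.7 CPM in O and 12.4, 11.6, 16.1 and 8.73 CPM in Y. The highest Kdr values were the O-titled males and the highest Ptprb and Pecam1 values were Y-titled female replicate 3, and every pair of groups overlapped. Log2 fold changes were 0.14 for Kdr, -0.06 for Ptprb and -0.14 for Pecam1, with standard errors of 0.20, 0.25 and 0.28.

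Bmp2, the secreted ligand through which the endothelium drives hepcidin in hepatocytes (ENSMUSG00000027358, plus strand, chr2:133552159-133562885), was at 15.8, 19.7, 13.6 and 22.6 CPM in O and 14.2, 9.70, 19.7 and 9.60 CPM in Y. Of the Y-titled libraries, male replicate 2 and female replicate 4 were low and the groups overlapped. The log2 fold change was 0.36 with a standard error of 0.27 and did not pass (adjusted p 0.578 in edgeR).

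**Figure D2:**
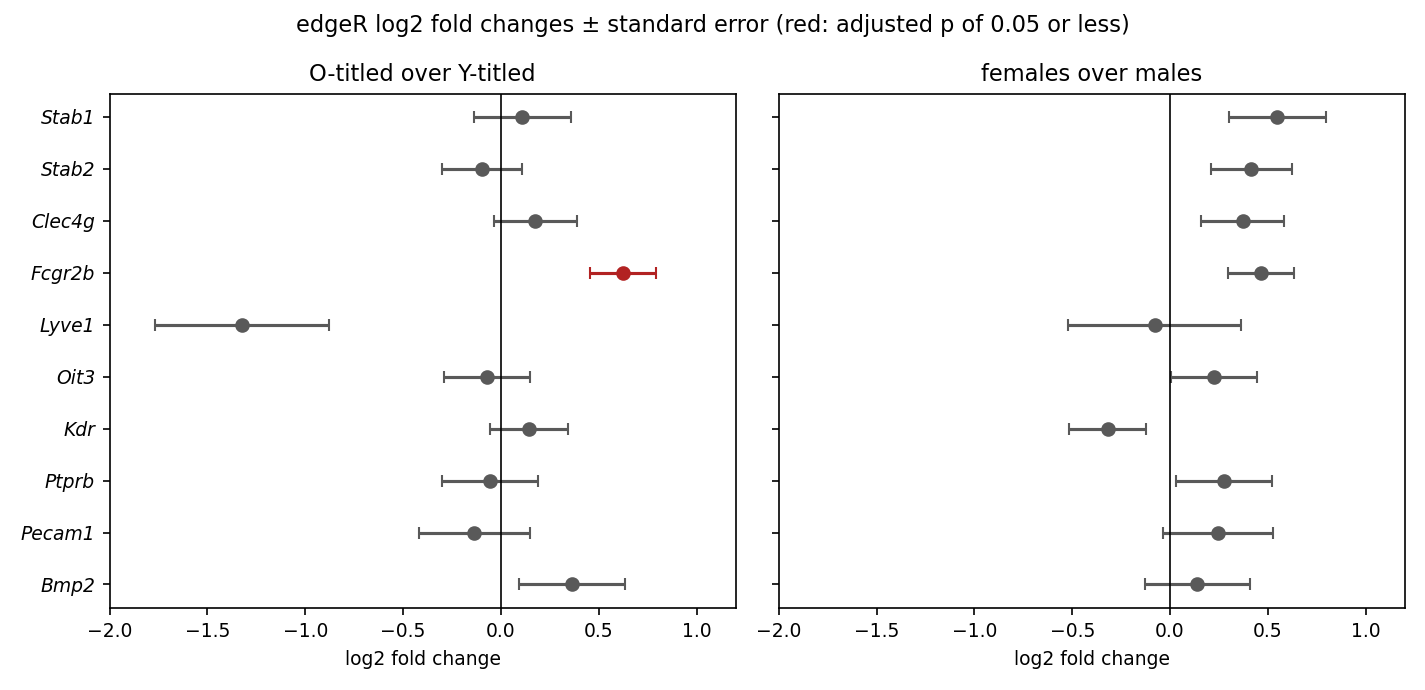
Log2 fold changes of the 10 markers from the edgeR fit on all 8 libraries, O-titled over Y-titled on the left and females over males on the right, with bars for 1 standard error and red for an adjusted p of 0.05 or less. Fcgr2b on the left, at 0.62, is the 1 red point, and 8 of the 10 points on the right are above 0.

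Between the sexes none of the 10 markers was called by edgeR, and 2 were at an unadjusted p under 0.05, Fcgr2b and Stab1. Over all genes 230 (3.00%) were called, 137 higher and 93 lower in females, and 955 were at an unadjusted p under 0.05. With total mapped reads as the scale the share of calls higher in females moved from 59.6% to 73.3%. Of the markers 8 had a positive and 2 a negative log2 fold change of females over males, with a median of 0.26 beside 0.00 over all tested genes. Summed, they stood at 298 ± 38.2 CPM in females and 248 ± 45.4 CPM in males. Stab1 averaged 23.4 ± 5.78 CPM in females and 16.0 ± 5.21 CPM in males (log2 fold change 0.55, adjusted p 0.358), and Fcgr2b 63.3 ± 11.6 and 47.7 ± 18.7 CPM (log2 fold change 0.46, adjusted p 0.190). Kdr went the other way, at 21.99 ± 2.49 CPM in females and 27.2 ± 5.14 CPM in males (log2 fold change -0.32, adjusted p 0.592). None of the 10 had sexes that did not overlap, against 501 of all tested genes (6.53%).

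Within males, where 2 O-titled were set against 2 Y-titled libraries in a fit that shares its spread over all 8, Fcgr2b was the 1 marker called, among 107 genes in all (1.40%). Its values of 56.5 and 69.7 CPM stood above 29.7 and 34.9 CPM, with a log2 fold change of 0.97 (standard error 0.24, adjusted p 0.0404 in edgeR). At an unadjusted p under 0.05 in edgeR were 3 of the markers within males, Fcgr2b, Clec4g and Lyve1, beside 9.30% of all tested genes. Within females none of the markers was called, while 388 genes were called (5.06%). None of the markers was at an unadjusted p under 0.05 within females, beside 15.8% of all tested genes. There Fcgr2b had 64.7 and 77.4 CPM against 49.2 and 62.0 CPM, a log2 fold change of 0.36 (standard error 0.21, adjusted p 0.441 in edgeR). The test of the difference between the sexes did not pass for Fcgr2b, at -0.61 for the log2 difference in females minus that in males (adjusted p 0.669 in edgeR), so a difference in response between the sexes was not shown.

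Clec4g had the lowest p among the markers in that test. In males it was at 65.9 and 85.5 CPM in O against 46.4 and 42.7 CPM in Y, and in females at 52.8 and 86.3 CPM in O against 83.2 and 85.6 CPM in Y. The log2 fold changes were 0.70 in males and -0.26 in females. Their difference of -0.97 (standard error 0.32) had an unadjusted p of 0.00664 and an adjusted p of 0.359 in edgeR, and 26 of all genes (0.339%) were called in this test. Without O replicate 4 the difference was -1.37 and the adjusted p 0.0462 in edgeR, and without O replicate 3, the low O-titled female, it was -0.66 with an adjusted p of 0.594. It did not pass in any of the 7 fits that left out a library other than O replicate 4.

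The files count reads per transcript, and for Fcgr2b they assign reads to annotated transcripts with and without an alternative exon. Whether the assigned reads themselves reach that exon is taken up further below. Of its 584 reads, 381 were assigned to Fcgr2b-201, 190 to Fcgr2b-202, 11 to Fcgr2b-204 and 2 to Fcgr2b-203. Fcgr2b-201 holds an additional exon, number 6 of 8, at chr1:170963325-170963465 of mm10 on the minus strand, which Fcgr2b-202 lacks. It is 141 bases, or 47 codons, in the part that codes for the cytoplasmic tail. As background, the form with this insert is kept at the cell surface, as on B cells, and the form without it is the one that enters coated pits and takes up immune complexes. The exon is shown because it is the coding difference between the forms, and the capitals mark the 57 bases that are also kept in Fcgr2b-203:

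Fcgr2b exon 6: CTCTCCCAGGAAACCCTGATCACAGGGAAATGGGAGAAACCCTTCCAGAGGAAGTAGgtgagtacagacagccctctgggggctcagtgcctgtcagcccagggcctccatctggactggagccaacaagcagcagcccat

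Fcgr2b-202 made up 36.7%, 42.3%, 30.1% and 30.4% of the reads on these main forms in O-titled replicates 1 to 4, and 36.2%, 16.7%, 35.3% and 28.2% in the Y-titled ones. The lowest value is 3 of 18 reads, with a 95% Wilson interval of 5.84% to 39.2%, which meets that of every other library. Over pooled reads the share was 34.4% (29.8% to 39.3%) in O and 31.0% (24.8% to 38.0%) in Y. The test of transcript usage gave a log2 difference of 0.08 for Fcgr2b-202 and a Simes p of 0.651. No gene was called in it (0 of 1555, 0.00%, with 12 at an unadjusted p under 0.05), and the alternative F test over a gene, chosen after seeing the data, also called 0, with 59 under 0.05 and Fcgr2b at 0.506. No shift between the assigned shares was detectable at this depth. The Simes test was conservative, with 0.772% of genes at an unadjusted p under 0.05, so its lack of calls says little.

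**Figure D3:**
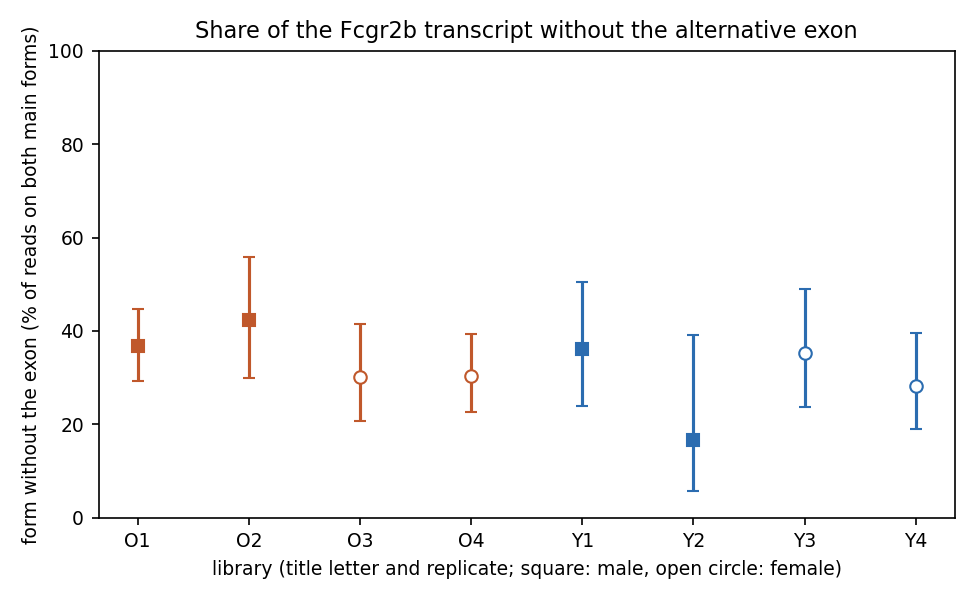
Share of Fcgr2b-202, the form without the alternative exon, among reads assigned to Fcgr2b-201 or Fcgr2b-202 in each library (percent, axis from 0 to 100), with 95% Wilson intervals, brown for O-titled and blue for Y-titled, squares for males and open circles for females. The intervals overlap in all 8 libraries, and the widest belongs to Y replicate 2 with 18 reads. The shares are of assigned reads. Most reads on Fcgr2b-201 were too short to hold the exon if they began at its annotated end.

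The forms also differ at their 3′ end, with a last exon of 2484 bases in Fcgr2b-201 and of 543 bases in Fcgr2b-202. A read that starts at the annotated end of Fcgr2b-201 must pass 2522 bases before it reaches exon 6, whereas the library medians of reads assigned to it were 945 to 1171 bases. In Fcgr2b-202 the junction that skips the exon lies 581 bases from the annotated end, and the medians there were 937 to 1460 bases. Most reads given to Fcgr2b-201 were thus too short to hold exon 6 if they began at its annotated end, and on which feature the assignment rests was not tested.

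How much of each marker's molecule was read differed widely with its length. Clec4g-202, annotated at 1242 bases in 9 exons, had library medians of 1262 to 1293 bases, and its reads averaged 89.4% of the annotated length. Most were thus about as long as the annotated transcript or longer. These are lengths of reads and not of their aligned part, and the longest read on Clec4g-202 was 3392 bases. Oit3-201 (2717 bases) averaged 58.2%, Lyve1-201 (2893 bases) 51.5% and Bmp2-201 (3555 bases) 42.0%. The large receptors were read mostly at their 3′ ends: Kdr-201 (5924 bases) averaged 30.3%, Stab1-201 (7999 bases, 69 exons) 24.8%, Stab2-201 (8228 bases, 69 exons) 21.8% and Ptprb-201 (11911 bases) 12.7%. The longest reads assigned to the stabilins still reached the annotated lengths, at 8000 bases on Stab1 and 8389 bases on Stab2, and the longest on Ptprb-201 was 5366 bases. The mean read length over all genes was 1156 to 1223 bases in the O-titled and 1168 to 1235 bases in the Y-titled libraries, so the groups overlapped in it.

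**Figure D4:**
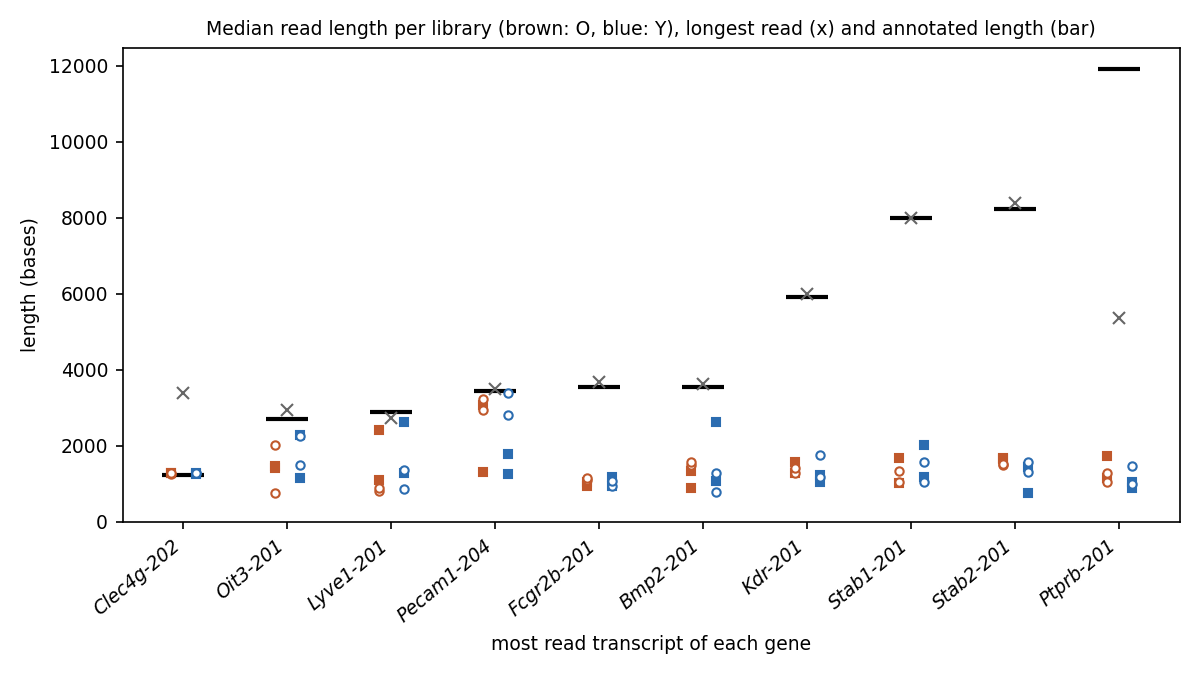
Median length of the reads assigned to the most read transcript of each marker, 1 point a library (brown O-titled, blue Y-titled, squares males, open circles females), with the longest read as a cross and the annotated length as a black bar, in bases on a linear axis. The points sit on the bar for Clec4g-202 at 1242 bases and far under it for the stabilins and Ptprb-201.

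Pecam1 was spread over 4 transcripts. Pecam1-204 had 46 reads, Pecam1-207 33, Pecam1-202 25 and Pecam1-203 17, and Pecam1-201 had 0, which allows for up to 3 reads by counting error. Ptprb had 248 reads on Ptprb-201 and 5 on Ptprb-203. Stab1, Stab2, Lyve1, Kdr, Oit3 and Bmp2 were each listed with a single transcript, so a change of form could not show in them.

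ETS and GATA factors are known to hold the endothelial programme, and the promoters of the markers were searched for the ETS core AGGAAG and the GATA motif AGATAA on both strands, in the 250 bases before the RefSeq start (GRCm38.p6). Promoters were in the table for 5 of the 10 markers, Stab1, Stab2, Clec4g, Fcgr2b and Kdr. The ETS core was in 3 of them, at 3 places in Clec4g and 1 each in Stab1 and Stab2, and in 29.5% of all 32851 promoters. The GATA letters AGATAA were in 0 of the 5 and in 9.99% of all. Other spellings of either motif were not searched. These are matches of letters, not sites. The Clec4g promoter, the one with most matches and that of the most abundant marker, lies at chr8:3720652-3720901 on the minus strand and is given with the ETS matches in capitals, of which 2 overlap:

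Clec4g promoter: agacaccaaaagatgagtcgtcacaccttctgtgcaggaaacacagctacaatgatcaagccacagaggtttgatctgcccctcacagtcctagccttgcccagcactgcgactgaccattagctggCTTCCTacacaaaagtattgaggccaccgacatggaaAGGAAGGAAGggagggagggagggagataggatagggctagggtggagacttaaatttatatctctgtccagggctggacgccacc

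Other genes of the endothelium were taken from lists of the same kind. To set beside the calls in this and the following lists, 4.06% of all 7668 tested genes were called between the titles. Between the sexes 3.00% were called. Of 26 tested other sinusoidal endothelial genes 1 was higher in O, 0 were lower and 25 did not pass, with a median log2 fold change of 0.06. The 1 that passed was Cd36, the fatty acid transporter and scavenger receptor that hepatocytes and macrophages carry too, at 53.5 to 113 CPM in O and 31.1 to 51.5 CPM in Y (log2 fold change 1.08, adjusted p 5.02e-04 in edgeR), and it was also higher in females (0.71, adjusted p 0.0179). The most abundant of this list, Igfbp7, Plpp3 and Aqp1, had log2 fold changes of -0.03, 0.12 and 0.08. None of 4 tested junction genes, S1pr1, Cdh5, Cavin2 and Esam, and none of 8 endothelial transcription factors passed between the titles, with medians of 0.32 and 0.14. Of the junction list Cavin2, which encodes a caveolar protein, was higher in females (log2 fold change 1.11, adjusted p 0.0182 in edgeR). Among the transcription factors Hhex was at 0.66 (adjusted p 0.0851), Nr2f2 at 0.01 and Ets1 at 0.11.

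Of 4 tested genes zoned along the sinusoid, Ltbp4, Msr1 and Fabp4 among them, none passed, with a median of 0.39. Of 6 tested genes of capillary and larger vessels 1 was lower in O, Col4a1, a basement membrane collagen, at 5.26 to 11.7 CPM in O and 13.6 to 26.0 CPM in Y (log2 fold change -1.02, adjusted p 0.0351 in edgeR). Its partner chain Col4a2 was at -0.50 (adjusted p 0.622), and Plvap, which forms the diaphragms of capillary pores, and Vcam1 were at 0.12 and 0.60 without passing. Ly6a, a surface antigen of many cell types, was higher in females by 2.21 on the log2 scale (adjusted p 3.37e-06 in edgeR). Apln had 0 reads in all 8 libraries.

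Along the axis from Bmp2 to hepcidin, 1 of 18 tested genes was higher in O, 0 were lower and 17 did not pass, with a median of -0.08. The 1 was Hamp, which encodes hepcidin, at 2208 to 3373 CPM in O and 1089 to 1585 CPM in Y (log2 fold change 1.15, adjusted p 7.76e-05 in edgeR). Tfr2 and Tmprss6, which raise and lower the signal in hepatocytes, were at 0.35 and -0.17 and did not pass, nor did Hamp2, a near copy whose reads could be mistaken for those of Hamp, at -1.64. Bmp6, the other endothelial ligand, had too few reads for the test, 45 in all.

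Around Kdr and Ptprb, none of 10 tested VEGF and angiopoietin pathway genes passed between the titles (median 0.09), Vegfa being at 0.25 and Shc1 at -0.15, and Vegfb was lower in females (-1.12, adjusted p 0.00804 in edgeR). Of 15 tested genes of scavenging and endocytosis 2 were higher in O, Cd36 and the endocytic receptor gene Lrp1 (138 to 185 CPM in Y and 176 to 247 CPM in O, log2 fold change 0.46, adjusted p 0.0379 in edgeR). The other 13 did not pass, Lamp1, Ap2m1 and Fcgrt among them at 0.07, 0.11 and -0.17, and the list's median was 0.14.

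Of 7 tested genes of Fc gamma receptors and their signalling none passed (median 0.25). Fcer1g, the chain shared by the activating receptors, was at 0.91 (adjusted p 0.0695 in edgeR), Fcgrt at -0.17 and Ptpn11 at 0.24. Fcgr3, whose extracellular part is closely similar to that of Fcgr2b, was named after its values were seen: it had 148 reads, a mean of 15.9 ± 5.62 CPM in O and 12.0 ± 6.70 CPM in Y, and a log2 fold change of 0.28 (adjusted p 0.722 in edgeR). How reads that match several genes were placed is not given in the sources used here, so reads shared by Fcgr2b and Fcgr3 are uncertain.

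Other cell types carry some of these genes, Fcgr2b foremost, which macrophages and B cells also make. Markers of Kupffer cells and macrophages, 16 tested, had 15 positive log2 fold changes and 0 calls, with a median of 0.48, and Lyz2, Cd5l and Clec4f were at 1.44, 0.69 and 0.02. Their summed level was 1801, 749.8, 1851 and 1483 CPM in O and 934.0, 859.8, 999.7 and 1018 CPM in Y. O-titled replicate 2 had the lowest macrophage sum of all 8 libraries and 69.7 CPM of Fcgr2b, the second highest. Of 14 lymphocyte and neutrophil markers only 2 had enough reads to be tested. Both had positive log2 fold changes, with a median of 1.62, and 0 were called. A gene of few reads can enter the test through the group in which it is higher, so these 2 give no direction for the list. All 14 together summed to 70.8, 21.0, 75.8 and 61.0 CPM in O-titled replicates 1 to 4 and 25.3, 34.9, 19.7 and 34.9 CPM in the Y-titled ones. O-titled replicates 1, 3 and 4 lay above every Y-titled library, and replicate 2 was again lowest within O. The part of these cell types in the Fcgr2b difference was not tested.

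**Figure D5:**
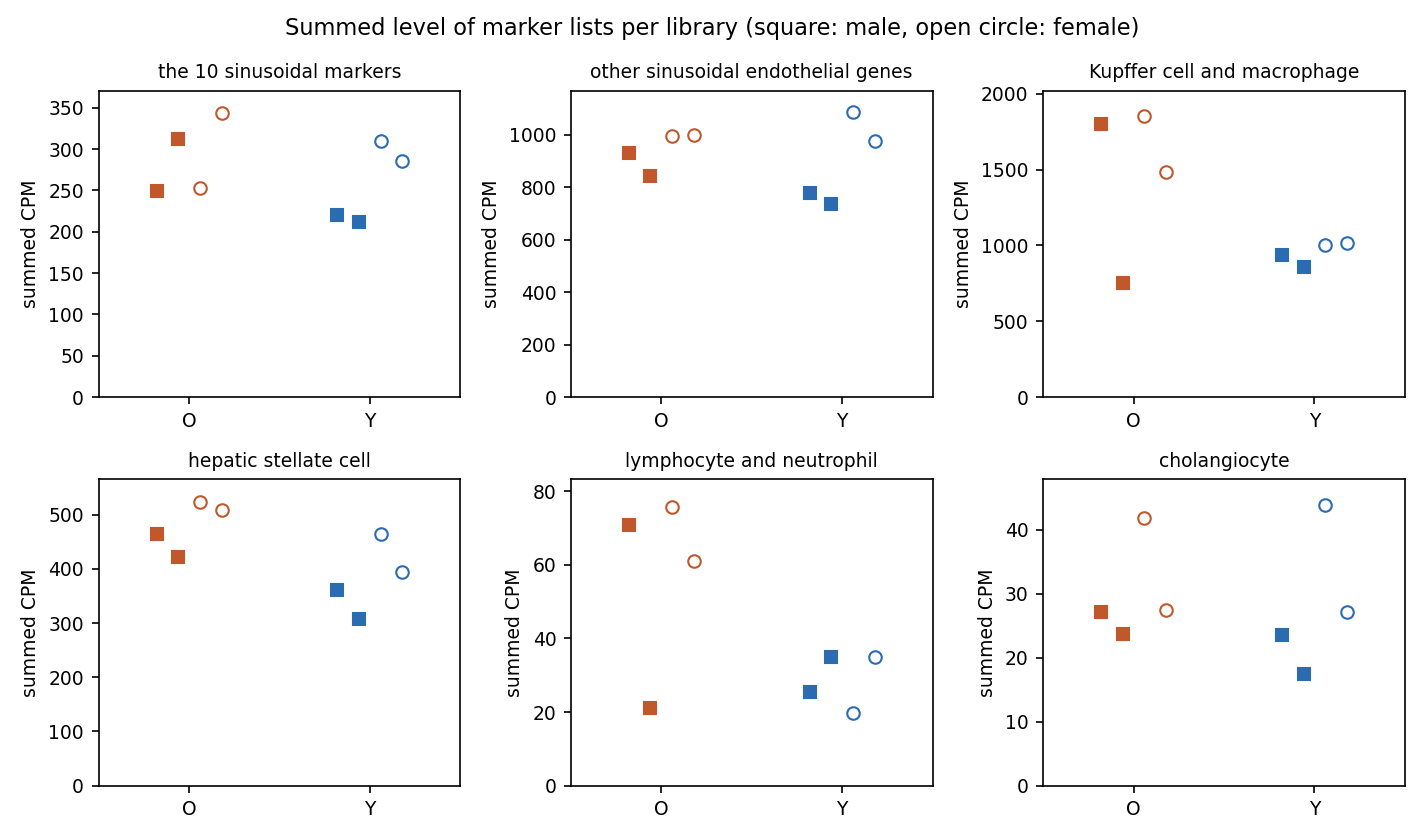
Summed CPM of 6 lists of marker genes in each library (linear axes from 0, a separate scale for each list), brown for O-titled and blue for Y-titled, squares for males and open circles for females. The sinusoidal sums overlap between the titles, while for Kupffer cell and macrophage markers 3 of the 4 O-titled libraries lie above 1018 CPM, the highest Y-titled value, and O replicate 2 lies under all others at 749.8 CPM.

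Of 9 tested hepatic stellate cell markers 2 were higher in O, beside 4.06% of all tested genes called in either direction. These were the matrix proteoglycan genes Dcn (log2 fold change 0.59, adjusted p 0.00744 in edgeR) and Bgn (0.72, adjusted p 0.0126 in edgeR). The stellate list summed to 421 to 523 CPM in O and 307 to 464 CPM in Y. The abundant Ecm1, Colec11 and Reln were at 0.09, 0.07 and 0.72 and did not pass. Of 12 hepatocyte markers 1 was lower in O, Serpina1c (-0.40, adjusted p 0.0485 in edgeR), and Alb, Apoa1 and Ttr were at -0.10, -0.45 and -0.36 without passing. Lymphatic markers, which bear on Lyve1, had 3 tested and 0 called, at sums of 65.8 to 88.6 CPM in O and 62.9 to 81.4 CPM in Y. Of this list Mmrn1 and Nts had 0 reads in every library, while Pdpn and Ccl21a had reads but were under the filter. Prox1, which hepatocytes also make, was at -0.21, Flt4 at -0.07, and Reln belongs to the stellate list too. The part of lymphatic endothelium in the Lyve1 reads was not tested. Cholangiocyte markers summed to 23.7 to 41.7 CPM in O and 17.5 to 43.9 CPM in Y, with Spp1 the 1 tested at 0.06 and Sox9 and Epcam under the filter.

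The genes whose levels over the 8 libraries were most like the summed markers were Nrp2, Acy3, Antxr2, Smarca4 and Slc37a4, with Pearson correlations of log2 CPM of 0.95, 0.94, 0.94, 0.93 and 0.91. These are the highest of the tested genes over 8 points that share their scaling factors, and they are given as a description. Nrp2, a co-receptor of the VEGF family, ran from 1.85 CPM in Y replicate 1 to 11.8 CPM in O replicate 2.

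Stab1 shares exon positions with Nt5dc2 on the opposite strand, which had 45 reads against 205 on Stab1, and whether the counting used the strand is not given in the sources used here. Stab2, Clec4g and Fcgr2b each overlap an antisense gene that is not analysed here.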

How the data were processed

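Poly(A)-selected RNA of 8 livers was sequenced directly on MinION R9.4.1 flow cells, per the labels' protocols. Each deposited table holds whole-number read counts per transcript, not normalized, which sum to the mapped reads stated in the same file, and the lengths of the assigned reads, per the file headers. The submitters' processing notes name minimap2 2.24, mm10 and DESeq2. The counting tool, its annotation and its use of strand are not given in the sources used here.

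Counts were summed per gene by Ensembl ID and positions taken from GENCODE M21. Genes were kept with filterByExpr (minimum count 10, groups of title and sex), scaled by TMM factors and tested with the robust quasi-likelihood test of edgeR 4.0.16 in R 4.3.3, with terms for title and sex and Benjamini-Hochberg adjustment at 0.05. A fit of 4 groups gave the differences within each sex and the interaction. The standard error of a log2 fold change is its size over the square root of F. Transcript usage was tested with diffSpliceDGE. The scripts were tested on simulated data.

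All 10 markers are named. Of each other list, genes called by title or sex and the 3 of highest mean CPM are named, apart from an item not reported here. The members and lists were chosen with earlier results of these data known. Hjv and Ctgf were not found under those symbols. Alternatives were other scalings and filters, DESeq2 1.42.0, limma 3.58.1 voom, thinned reads, a replicate block, no sex term and leaving out each library. The within-sex differences were not refitted under them.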

Additional observations from a re-analysis of the deposited data

Results flagged for a closer look

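In the O-titled group the Oit3 level of replicate 4, a female, was 33.6 CPM, while the other 3 libraries lay between 18.7 and 20.3 CPM. The gap to the nearest library is 0.891 of the group's range, above Dixon's 95% critical value for a group of 4. Of 24 groups of 4 examined in this way 1 was singled out, and chance alone does so in about 1 group of 20. The same library had the highest sum of all 10 markers, 343 CPM. Without it the Oit3 difference between the titles was the lowest of the fits that left out 1 library, -0.32 on the log2 scale, and it was not called.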

How the results depend on the processing

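Between the titles 311 genes were called, and 600 with no filter on low counts, 174 with all libraries thinned to the shallowest, 145 with no sex term and 186 to 339 when 1 library was left out. Between the sexes the count of 230 became 401 with no filter, 135 when thinned and 149 to 238 without 1 library. For the interaction the count of 26 became 100 with no filter, 42 with DESeq2 and 9 to 50 without 1 library. Transcript usage called 0 genes in every fit run. Deviations within title and sex correlated between libraries of the same title number at -0.035 for numbers 1 and 2 and at -0.038 for 3 and 4. In groups of 2 libraries the deviations mirror each other, so these values cannot decide whether the title numbers pair the libraries. Deviations within title alone, which also hold the sex difference, correlated at 0.22 to 0.39. With the number as a replicate block 229 genes were called between the titles, Fcgr2b not among them.

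For the markers 345 single values were refitted, of which 318 kept their direction and side of the threshold, 10 were Fcgr2b losing its call between the titles, 1 was Clec4g passing in the interaction, and 16 changed sign, none of them called. For the interaction only Clec4g and Fcgr2b were followed. Of the values refitted, only Fcgr2b between the titles was called in the main fit, so the others that kept their side did so by staying uncalled. Scaled by total mapped reads, Oit3 and Ptprb between the titles were at 0.0208 and 0.0369 and Lyve1 between the sexes at 0.00907. Thinned, Stab1 and Kdr between the titles were at -0.17 and -0.15 and Kdr between the sexes at 0.0280. Without 1 library the title differences ran from -0.070 to 0.27 for Stab1, -0.20 to 0.015 for Stab2, -0.32 to 0.050 for Oit3 and -0.27 to 0.18 for Ptprb, and those between the sexes from -0.031 to 0.36 for Oit3, -0.050 to 0.30 for Bmp2 and -0.33 to 0.17 for Lyve1. The cause of these changes was not tested. Lyve1 was at -1.52 to -1.14 between the titles with adjusted p of 0.0638 to 0.383 and could not be tested in the thinned set. The test planned for markers under the count filter was not run, since none was under it. Depth limits Lyve1 and Pecam1 most, with 57 and 121 reads.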
